A study of Mus musculus with 2 samples.

Results

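Sphingosine-1-phosphate (S1P) signalling was followed through 8 genes, taken by symbol from the gene table: the receptors S1pr1, S1pr2 and S1pr3, the kinases Sphk1 and Sphk2, the lyase Sgpl1 and the lipid phosphatases Plpp1 and Plpp3. All 8 were found among the 31053 genes listed, of which 23425 had at least 1 unique molecular identifier (UMI, a tag that counts 1 captured RNA molecule). The study profiled single cells from injured mouse lung, with 1 wild-type (WT) and 1 p47phox-KI (KI) library, and its stated purpose was to compare gene expression per cell between these genotypes. p47phox is an organizing subunit of the phagocyte NADPH oxidase, the enzyme that makes superoxide. Both libraries come from strain C57BL/6 and carry the label of acute lung injury, and no uninjured lung was analysed here. The labels describe PBS perfusion, collagenase digestion, red cell lysis, staining for viability and for the leukocyte antigen CD45.2, and a sort. They do not say which cells the sort kept, what caused the injury, how the KI allele was built, or how old and how many the animals were. With 1 library per genotype there was no replicate to set a difference against, so no test was made, and every interval below covers counting error only.

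S1P is a lipid mediator made from sphingosine, itself released from ceramide. Sphingosine kinases phosphorylate it inside the cell, the transporters SPNS2 and MFSD2B carry it out, the lyase SGPL1 cleaves it irreversibly, and lipid phosphate phosphatases (the Plpp family) remove its phosphate at the cell surface. Outside the cell it acts on G protein-coupled receptors: S1PR1 couples to Gi and strengthens the junctions between endothelial cells, S1PR2 couples mainly to the G proteins that activate RhoA and tends to loosen them, and S1PR3 couples to several G proteins and contracts vascular smooth muscle. In the lung this pathway is best known for holding the capillary barrier closed and for guiding lymphocytes out of tissues.

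The libraries held 10473 WT and 9120 KI barcodes with 43376713 and 43445797 UMIs. The filters kept 7735 WT cells, with a median of 3307 UMIs, and 6636 KI cells, with 3774.5. Clustering gave 28 clusters, of which 3 (743 cells) kept no name. The others are named "-like" because they rest on markers alone. Endothelial-like cells were the largest class (4404 WT and 3622 KI cells), followed by fibroblast-like (1295 and 1069), mural-like (smooth muscle or pericyte-like, 501 and 532), alveolar type 2-like (AT2, 455 and 569) and alveolar type 1-like cells (AT1, 433 and 256). Leukocyte-like classes made up 3.09% of WT and 1.88% of KI kept cells, down to 11 KI neutrophil-like cells. The libraries share 30 barcode sequences (14 among kept cells), which were kept apart by library. A haemoglobin UMI was present in 1.56% of WT and 16.97% of KI kept cells. Levels are given as CPM, the gene's summed UMIs over the sum of all genes' UMIs in the same cells on the usual scale, and ratios as log2 of KI over WT with 95% intervals. A 3′ tag count is not scaled to transcript length or capture, so levels are compared between cells and libraries, never between genes.

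**Figure D1:**
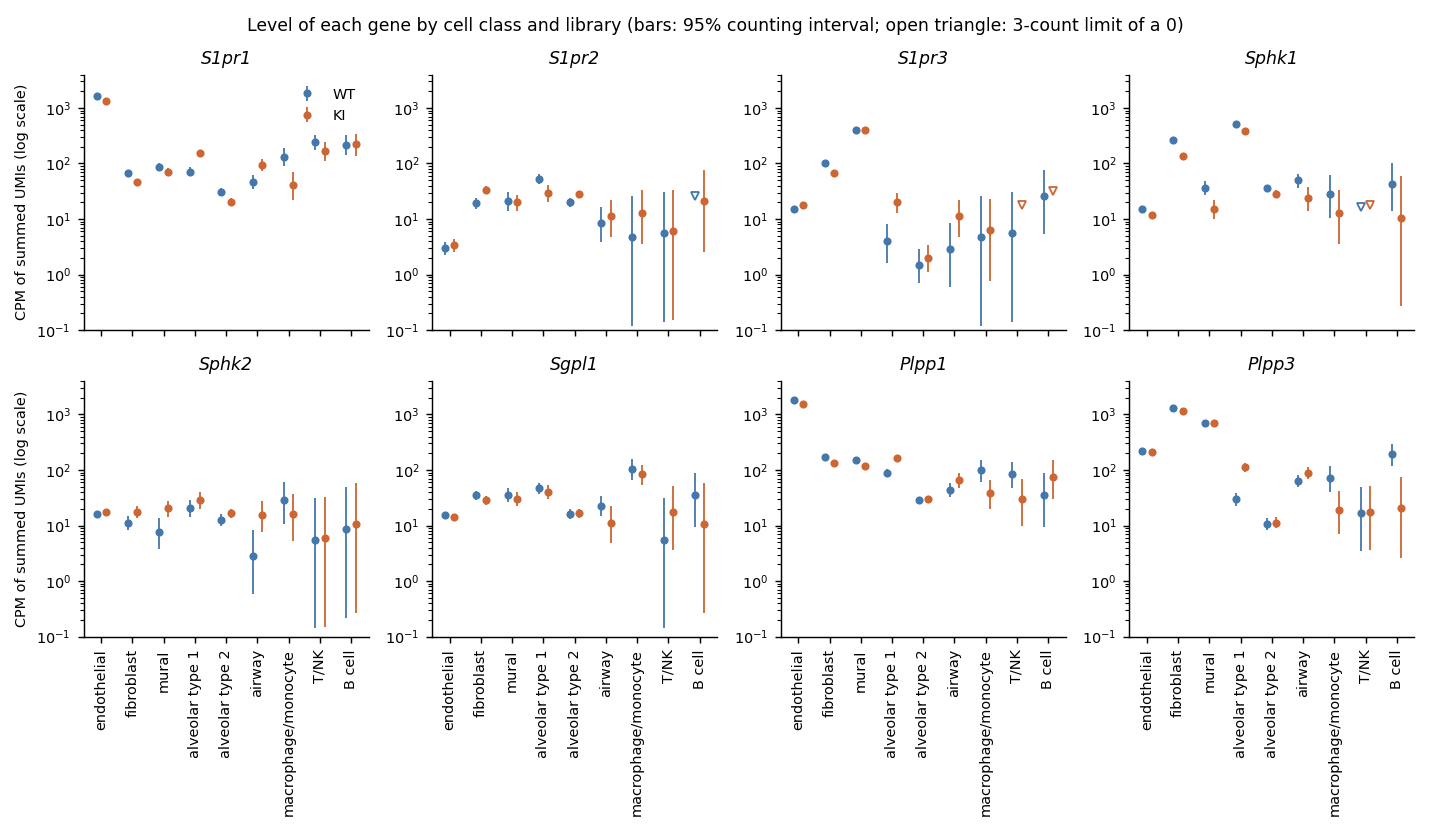
Levels (CPM, log axis) of the 8 genes in each cell class with at least 30 cells in both libraries, WT beside KI, with exact 95% Poisson intervals. S1pr1 and Plpp1 stand highest in endothelial-like cells (1665 and 1816 CPM in WT), S1pr3 in mural-like cells (406 CPM in WT), and Plpp3 in fibroblast-like cells (1334 CPM in WT).

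S1pr1, the barrier-strengthening receptor (ENSMUSG00000045092, chr3:115710433-115715072 on GRCm38, minus strand), was found almost wholly in endothelial-like cells of both libraries. Its level there was 1665 CPM in WT, from 29598 UMIs, and 1352 CPM in KI, from 23070, which was 96.5% and 95.8% of all S1pr1 UMIs of kept cells. At least 1 UMI was seen in 95.9% of the WT endothelial-like cells and in 94.4% of those from KI. AT2-like cells, which should lack the receptor, had one in 13.4% and 16.2%, but at a median of 12881 and 12884 UMIs per cell against 3596.5 and 4168.5. With every cell thinned to 1000 UMIs the shares became 78.7% and 71.9% in endothelial-like cells, leaving out 192 and 127 shallower ones, and 2.46% and 6.91% in AT2-like cells, leaving out 3 and 16. Next came T or natural killer cell-like cells (244 CPM in WT, 167 in KI) and B cell-like cells (217 and 221). Those classes held 40 to 51 and 31 to 50 cells, and their intervals overlapped in both libraries. The other named classes with at least 30 cells in both libraries lay between 20.1 CPM, in KI AT2-like cells, and 152 CPM, in KI AT1-like cells.

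Outside the vessels, S1pr1 stood near the level of the other endothelial markers found in the same cells. For every 100 UMIs of 8 endothelial marker genes, endothelial-like cells held 11.9 S1pr1 UMIs in WT and 11.2 in KI. Fibroblast-like cells held 11.1 and 9.75, mural-like cells 12.1 and 11.6, AT2-like cells 10.9 and 9.85, and airway epithelial-like cells 12.4 and 12.1. AT1-like cells held 14.1 (11.6 to 17.1) and 10.6 (9.02 to 12.3). Lymphocyte-like cells stood apart from this ratio. T or natural killer cell-like cells held 22.3 (15.7 to 31.1) in WT and 35.4 (22.2 to 55.2) in KI, and B cell-like cells 29.8 (18.2 to 46.99) and 20.8 (12.3 to 33.5), each interval above the endothelial value. In lymphocytes the receptor is known as the sensor that leads cells out toward S1P-rich blood and lymph.

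**Figure D2:**
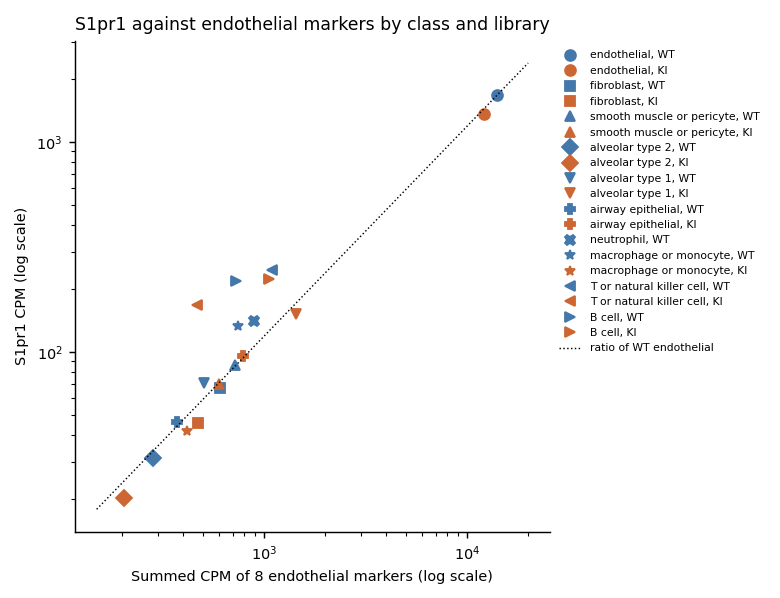
S1pr1 level (CPM, log axis) against the summed level of the endothelial marker genes (CPM, log axis) for each class and library. The non-vascular epithelial, fibroblast-like and mural-like classes lie near the dotted line of the WT endothelial ratio, with 9.75 to 14.1 S1pr1 UMIs per 100 marker UMIs, while both lymphocyte-like classes lie above it.

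Within the vessels S1pr1 was graded. Aerocyte-like capillary cells, the thin endothelium that faces the alveolar gas, held 1781 CPM in WT and 1613 in KI. General capillary-like cells, the capillary type known to renew itself and the aerocytes, held 1716 and 1416, and artery-like cells 1448 and 1446. Vein-like cells were lowest, at 1108 and 731. The leading genes of that cluster included the lymphatic markers Ccl21a and Mmrn1, and no lymphatic subset was named. Whether it holds lymphatic cells was not tested. One further endothelial cluster (cluster 4, 555 WT and 433 KI cells), led among endothelial clusters by the stress genes Atf3, Hspa1a and Ier3 and given no vessel name, held 1586 and 940. The ratio was near 0 in artery-like cells (0.00, −0.12 to 0.11), −0.14 in aerocyte-like and −0.28 in general capillary-like cells, −0.60 (−0.73 to −0.47) in vein-like cells and −0.75 (−0.83 to −0.68) in the stress-gene cluster. In that cluster the summed endothelial markers were also lower in KI, 8681 against 10632 CPM. Their part in the S1pr1 difference was not tested.

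Cluster 4 was not the same mixture of cells in both libraries. Its 313 WT and 240 KI cells with at least 500 genes and at most 5% mitochondrial UMIs fell into other clusters when the cells passing that filter were clustered afresh. A cluster led by Tmem252, Inhbb and Grrp1 took 52.7% of the WT but 14.6% of the KI cells, and 1 led by Ier3, Neurl3 and Atf3 took 29.1% and 57.1%. S1pr1 was 2191 and 2135 CPM in the cells of the first (−0.04, −0.19 to 0.12), and 861 and 637 CPM in those of the second (−0.44, −0.62 to −0.25). A further 15.3% and 25.4% of the cells joined 1 other cluster, where S1pr1 was 1529 and 1007 CPM (−0.60, −0.84 to −0.36). Over all 313 and 240 cells S1pr1 was 1684 and 964 CPM (−0.81, −0.90 to −0.71), and each of the 3 parts had a ratio closer to 0. The part of the unequal mixture in this ratio, and in the −0.75 of the whole cluster, was not tested.

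**Figure D3:**
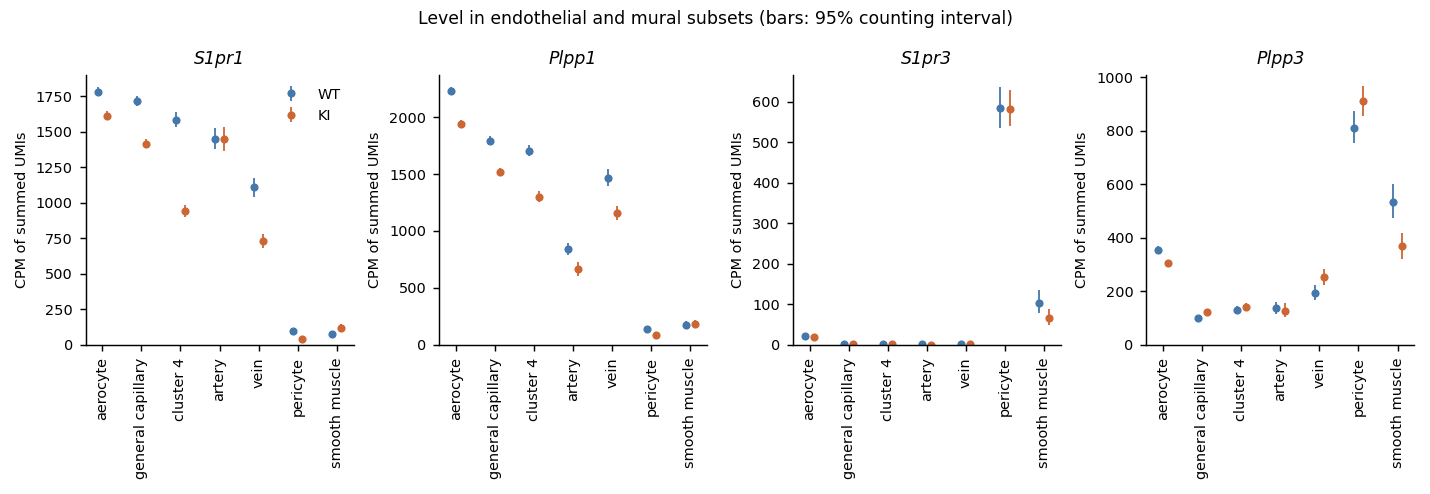
Levels (CPM) of S1pr1, Plpp1, S1pr3 and Plpp3 in the endothelial-like and mural-like subsets and in cluster 4, the stress-gene cluster, WT beside KI, with exact 95% Poisson intervals. S1pr1 runs from 1781 CPM in WT aerocyte-like cells to 731 CPM in KI vein-like cells, and S1pr3 stands highest in pericyte-like cells, at 583 CPM in both libraries.

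S1pr3 (ENSMUSG00000067586, chr13:51408639-51422797, plus strand) was highest in mural-like cells, at 406 CPM in WT, from 579 UMIs, and 397 in KI, from 721. The pericyte-like cells, which wrap capillaries, carried most of it: their level was 583 CPM in both libraries, with a log2 ratio of 0.00 (−0.17 to 0.17). Smooth muscle-like cells held 103 and 66.0 CPM. Of the mural-like cells, 57.3% in WT and 61.5% in KI had a UMI, or 35.3% and 34.4% at 1000 UMIs per cell. AT2-like cells held 1.51 and 2.01 CPM, and 0.15% and 0.87% of the cells of that class had a UMI at the same thinned depth. Fibroblast-like cells came second, at 103 CPM in WT and 68.5 in KI. Endothelial-like cells held 15.3 and 18.2 CPM, and within the capillaries aerocyte-like cells (21.97 and 19.999) lay above general capillary-like cells (1.47 and 2.89), with intervals that did not overlap. The amount of S1pr3 beside the mural markers differed between these classes. Per 100 mural marker UMIs it was 2.16 and 2.43 in mural-like, 9.25 and 8.51 in endothelial-like, and 21.1 and 14.8 in fibroblast-like cells. Cluster 17, endothelial-like with 100 WT and 111 KI cells, held mural markers at 1449 and 1669 CPM. The endothelial-like class as a whole held 165 and 214. The part of this cluster in the endothelial S1pr3 values was not tested.

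S1pr2 (ENSMUSG00000043895, chr9:20962361-20976781, minus strand) was sparse everywhere and low in endothelium. Its endothelial level was 2.98 CPM in WT, from 53 UMIs, and 3.34 in KI, from 57. In WT the highest level was in AT1-like cells, 52.5 CPM, while mural-like, AT2-like and fibroblast-like cells lay close together at 21.05, 20.2 and 19.1 CPM. In KI fibroblast-like cells led with 33.3 CPM, followed by AT1-like cells (29.2) and AT2-like cells (28.0), and these 3 had overlapping intervals. The remaining receptors were S1pr4 and S1pr5. S1pr4, a receptor best known from leukocytes, held 19.9 CPM in WT (353 UMIs) and 28.5 in KI (486 UMIs) of endothelial-like cells, and S1pr5 had 6 and 5 UMIs in all kept cells.

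The S1pr2 and S1pr3 start regions are shown because these receptors led in different cell classes and, in fibroblast-like cells, lay on opposite sides of 0 between the libraries. Each window is the 250 bases before the gene's start (RefSeq, GRCm38.p6), S1pr2 from chr9:20976794-20977043 on the minus strand and S1pr3 from chr13:51408368-51408617 on the plus strand. Capitals mark matches to 4 motifs searched on both strands: the GC box GGGCGG, the KLF-type CACCC, the AP-1 motif TGANTCA and the cyclic AMP response element TGACGTCA.
S1pr2: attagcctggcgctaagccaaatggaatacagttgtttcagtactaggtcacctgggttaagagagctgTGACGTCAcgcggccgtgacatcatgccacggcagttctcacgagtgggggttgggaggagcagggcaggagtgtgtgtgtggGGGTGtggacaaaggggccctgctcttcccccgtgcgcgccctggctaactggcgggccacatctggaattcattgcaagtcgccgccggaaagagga
S1pr3: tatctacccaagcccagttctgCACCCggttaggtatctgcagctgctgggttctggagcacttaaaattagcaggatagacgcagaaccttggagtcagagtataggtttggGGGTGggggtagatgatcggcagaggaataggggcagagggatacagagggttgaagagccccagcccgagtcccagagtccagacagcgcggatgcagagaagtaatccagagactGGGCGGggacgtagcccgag
S1pr2 had 1 cyclic AMP response element, a motif added to the search after this sequence was seen and present in 1.55% of 32851 windows of the same length, and 1 CACCC match. S1pr3 had 2 CACCC matches and 1 GC box. CACCC occurred in 52.0% of all windows, the GC box in 32.7% and the AP-1 motif in 6.75%, which neither window held. The matches did not overlap each other. They describe letters only, and binding was not measured. An entry was found for 6 of the 8 genes, the others being S1pr1 and Plpp1.

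Sphk1, the inducible sphingosine kinase (ENSMUSG00000061878, chr11:116530925-116536674, plus strand), was a gene of AT1-like and fibroblast-like cells. AT1-like cells, the flat cells of gas exchange, had a level of 508 CPM in WT, from 890 UMIs, and 392 in KI, from 470, with a UMI in 64.9% and 56.3% of cells (38.4% and 34.7% at 1000 UMIs per cell). Fibroblast-like cells held 264 CPM (1074 UMIs) and 136 CPM (557 UMIs), with a UMI in 36.8% and 25.6% of cells, or 19.5% and 10.9% at 1000 UMIs. Every other class with at least 30 cells in both libraries lay below 50 CPM. Endothelial-like cells held 15.2 and 11.6 CPM, with a UMI in 4.63% and 3.73% of cells (1.43% and 0.93% thinned). T or natural killer cell-like cells had 0 UMIs, where 3 would be 16.7 and 17.9 CPM. Over all kept cells Sphk1 was at 78.7 CPM in WT against 45.1 in KI, with a ratio of −0.80 (−0.90 to −0.71). Per 100 AT1 marker UMIs, fibroblast-like cells held 84.1 and 62.2 Sphk1 UMIs and AT1-like cells 1.60 and 1.42.

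Sphk2, the other kinase, found largely in the nucleus and mitochondria (ENSMUSG00000057342, chr7:45709467-45718002, minus strand), showed no such pattern. Endothelial-like cells held 15.9 and 17.8 CPM, AT2-like cells 12.6 and 16.8, fibroblast-like cells 11.3 and 17.6, mural-like cells 7.72 and 20.4, and AT1-like cells 20.6 and 28.4. The level was higher in the KI library in each of these 5 classes, by ratios from 0.17 to 1.40, with intervals clear of 0 in the fibroblast-like and mural-like cells and spanning 0 in the other 3. The gene overlaps Dbp and Rpl18 in the annotation, and reads of overlapping genes may not be fully separated. Sphk1 likewise has an antisense neighbour, Gm29292, and the strand setting of the counting is not given in the sources used here.

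Sgpl1, the lyase that ends the pathway (ENSMUSG00000020097, chr10:61098642-61147703, minus strand), was highest in phagocyte-like cells. Macrophage or monocyte-like cells held 104 CPM in WT and 83.6 in KI, from 42 and 43 cells, and WT neutrophil-like cells 92.1. AT1-like cells followed with 46.8 and 40.9, then mural-like (35.8 and 30.3) and fibroblast-like cells (34.9 and 28.6). Of the 5 largest classes, AT2-like cells (16.0 and 16.7) and endothelial-like cells (15.5 and 14.3) held least.

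The phosphatases, which clear S1P and related lipids outside the cell, led in different classes. Plpp1 (ENSMUSG00000021759, chr13:112800792-112867894, plus strand) held 1816 CPM in WT and 1513 in KI of endothelial-like cells, 95.2% and 93.99% of its kept UMIs. Plpp3 (ENSMUSG00000028517, chr4:105157347-105232764, plus strand) held 1334 and 1143 CPM in fibroblast-like cells and 709 and 714 in mural-like cells, against 218 and 209 in endothelial-like cells. Among endothelial subsets Plpp1 went from 2229 and 1940 CPM in aerocyte-like cells to 839 and 663 in artery-like cells. Aerocyte-like cells were also the highest subset for Plpp3, with 355 and 304 CPM against 101 and 122 in general capillary-like cells. Beside the endothelial markers, fibroblast-like cells held 28.5 and 28.0 Plpp1 UMIs per 100 marker UMIs, above the 12.9 and 12.5 of endothelial-like cells.

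Spns2, the exporter of endothelial S1P, was likewise found mainly in the vessels, with 104 CPM in WT and 87.2 in KI of endothelial-like cells (94.3% and 93.3% of its kept UMIs). Its level in aerocyte-like cells was 91.6 CPM in WT against 61.3 in KI, with a ratio of −0.58 (−0.77 to −0.39). Mfsd2b, the red cell and platelet exporter, had 109 and 95 UMIs in all kept cells.

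**Figure D4:**
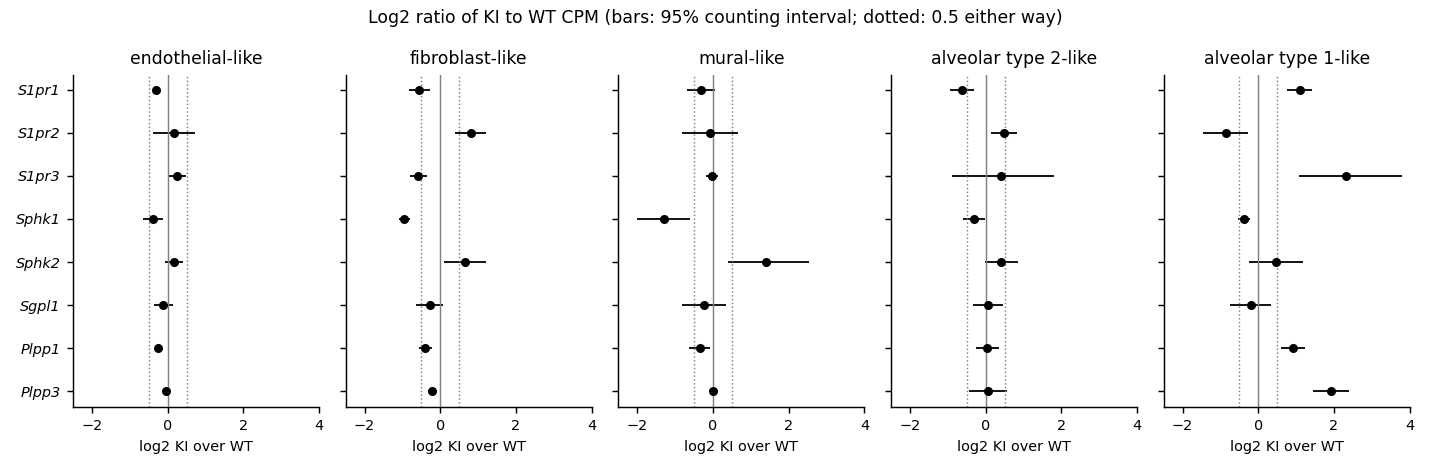
Log2 ratio of KI over WT for each of the 8 genes in the 5 classes with at least 100 cells in both libraries, with exact 95% counting intervals and dotted lines at 0.5 in each direction. All 8 endothelial ratios lie between −0.39 and 0.25, while the fibroblast-like and AT1-like ratios reach −0.95 and 2.32.

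Between the genotypes, no member differed by more than a log2 ratio of 0.5 in endothelial-like cells. This 0 of 8 stands beside a background in which 15.4% of 11998 genes with at least 50 UMIs were past 0.5, 10.9% higher and 4.51% lower. S1pr1 was −0.30 (−0.32 to −0.28), Plpp1 −0.26 and Sphk1 −0.39, on the lower side, and S1pr3 0.25, Sphk2 0.17 and S1pr2 0.16 on the higher side. The members' median was −0.08 against 0.06 over all genes. The 8 endothelial markers were also lower in KI, at a sum of 14029 CPM in WT and 12124 in KI. Per 100 of their UMIs, S1pr1 had 11.9 in WT and 11.2 in KI, and Plpp1 12.9 and 12.5. AT2 markers in this class were 695 and 1398 CPM. The part of these marker differences in the members' ratios was not tested. With each library clustered alone, Sphk1 was at −0.75 and S1pr3 at −0.70, both past 0.5 and S1pr3 on the other side of 0. In aerocyte-like cells of the main setting S1pr3 was −0.14 (−0.49 to 0.22). S1pr4 was at 0.52 (0.32 to 0.72), and it was also higher in KI general capillary-like cells, 21.5 against 10.5 CPM.

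In fibroblast-like cells the receptors and the kinases each split. S1pr2 was higher in KI (33.3 against 19.1 CPM; 0.80, 0.38 to 1.22), and S1pr1 and S1pr3 were lower, at −0.55 (−0.83 to −0.28) and −0.59 (−0.81 to −0.37). Sphk1 was lower, at −0.95 (−1.10 to −0.80), and Sphk2 higher, at 0.64 (0.09 to 1.21), from 46 WT and 72 KI UMIs. These 5 of 8 genes, 2 higher and 3 lower, compare with 21.3% of 10206 genes past 0.5 in either direction, 14.7% higher and 6.58% lower. The members' median was −0.34 and that of all genes 0.07. Sgpl1, Plpp1 and Plpp3 lay within 0.5, at −0.28, −0.39 and −0.22. Haemoglobin and other red cell or platelet markers summed to 9.08 CPM in WT and 1586 CPM in KI of this class, and their part in these ratios was not tested.

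The fibroblast-like class was made of 4 clusters in unequal shares. Cluster 12, led by the metal transporter Slc39a14, 1200007C13Rik and the matrix protein thrombospondin Thbs1, was 18.9% of the class in WT and 9.73% in KI. Cluster 13, led by the collagen-binding proteoglycan Dcn, the pentraxin Ptx3 and the chemokine Ccl11, was 8.34% and 17.1%. Cluster 12 was the highest for Sphk1, with 588 CPM in WT and 506 in KI, and for S1pr3, with 259 and 214. Sphk1 was also lower in KI in the other clusters: 62.6 against 95.4 in cluster 2, 161 against 328 in cluster 7 and 72.5 against 156 in cluster 13. S1pr2 was higher in KI in each, from 0.48 in cluster 7 to 1.32 in cluster 12, on few UMIs. S1pr3 had ratios of 0.10 in cluster 2, −0.59 in cluster 7 and −0.28 in cluster 12. Plpp3 was 977 and 397 CPM in cluster 12 (−1.30) but 1199 and 1359 in cluster 7 (0.18), a split that the class value of −0.22 does not show. S1pr1 in cluster 13 was 131 and 16.8 CPM (−2.97). The part of endothelial RNA in this value was not tested. Over the class, cells with no endothelial marker UMI held 19.2 and 16.3 CPM of S1pr1 (−0.23, −0.95 to 0.47).

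**Figure D5:**
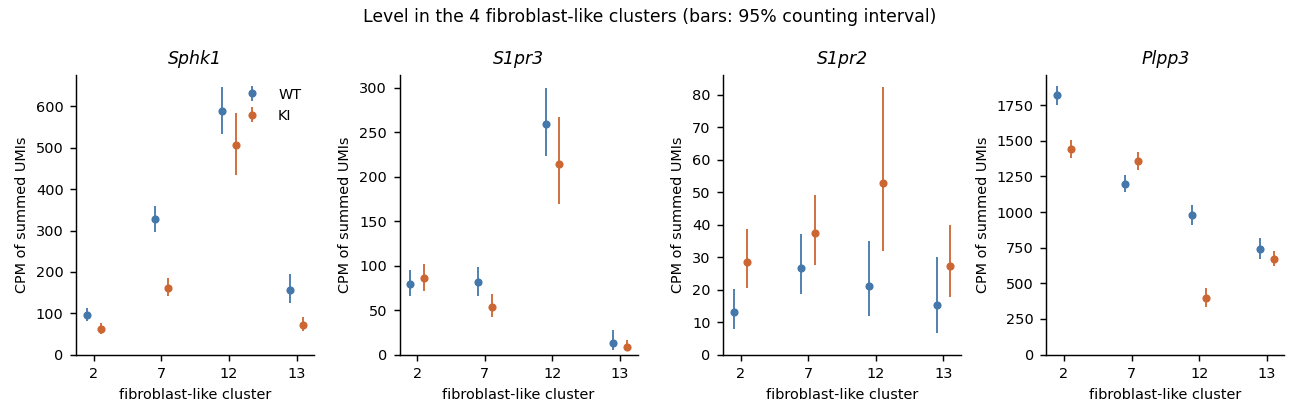
Levels (CPM) of Sphk1, S1pr3, S1pr2 and Plpp3 in the 4 fibroblast-like clusters, WT beside KI, with exact 95% Poisson intervals. Sphk1 is lower and S1pr2 higher in KI in each cluster, with overlapping intervals for Sphk1 in cluster 12 and for S1pr2 outside cluster 2, and cluster 12 holds the highest Sphk1 (588 CPM in WT) and S1pr3 (259 CPM in WT).

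With the same cluster shares in both libraries the fibroblast ratio was −0.59 for Sphk1 and −0.17 for S1pr3, so the S1pr3 difference was within 0.5 and the Sphk1 difference past it. With doublets kept, S1pr1 was −0.40, S1pr3 −0.43 and Plpp1 −0.54. When per-cell CPM values were averaged, S1pr2 was 0.35, Sphk2 0.44 and S1pr1 −0.17. In the 732 WT and 545 KI fibroblast-like cells with no endothelial marker UMI, S1pr1 was 19.2 and 16.3 CPM (−0.23), Sphk1 270 and 148 (−0.87) and S1pr3 116 and 56.6 (−1.04).

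In mural-like cells the leading receptor was close to level between the libraries. S1pr3 was −0.03 (−0.19 to 0.13) and Plpp3 0.01, while the kinases again pointed apart: Sphk1 at −1.29 (−2.02 to −0.60), from 52 and 27 UMIs, and Sphk2 at 1.40 (0.40 to 2.52), from 11 and 37 UMIs. This was 1 gene higher and 1 lower, beside 10.6% and 6.23% of 7797 genes (16.8% in either direction), and Sphk2 itself had fewer than the 50 UMIs asked of those genes. Its ratio was 0.81 with at least 500 genes and at most 5% mitochondrial UMIs. The members' median was −0.24 over the 7 with 50 UMIs, against 0.03 for all genes. In pericyte-like cells S1pr1 was 95.6 CPM in WT and 43.0 in KI (−1.15), and Plpp1 141 and 84.3 (−0.74). In the 275 WT and 262 KI mural-like cells with no endothelial marker UMI, S1pr1 was 28.4 and 19.6 CPM (−0.53, −1.57 to 0.48). Plpp1 there was −0.35 (−0.88 to 0.18), and both intervals span 0. In smooth muscle-like cells S1pr1 was 72.3 and 118, Sphk1 83.7 and 36.9 (−1.18), and Plpp3 535 and 367 (−0.54). S1pr3 in that subset was 103 and 66.0 CPM (−0.64, −1.25 to −0.03, from 54 and 43 UMIs). Sphk2 there was at 1.91 (0.07 to 4.35), from 3 and 14 UMIs.

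In AT1-like cells S1pr1, S1pr3 and both phosphatases were higher in the KI library and S1pr2 was lower. Markers of some other cell types were higher and those of others lower. S1pr1 was 71.4 CPM in WT and 152 in KI (1.09, 0.75 to 1.43), Plpp1 87.9 and 165 (0.91, 0.60 to 1.22), Plpp3 29.7 and 112 (1.91, 1.44 to 2.40), and S1pr3 4.00 and 20.02 (2.32, 1.07 to 3.78, from 7 and 24 UMIs). S1pr2 was 52.5 and 29.2 CPM (−0.85, −1.45 to −0.27). That was 4 higher and 1 lower, beside 16.4% and 9.81% of 7098 genes (26.2% in either direction), and S1pr3 was under the 50 UMIs asked of those genes. The class's own Sphk1 was within 0.5, at −0.37 (−0.54 to −0.21), and it was lower in KI in both AT1-like clusters, 413 against 527 and 229 against 277 CPM. The median of the 7 members with 50 UMIs was 0.46, against 0.04 for all genes.

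Several marker sums in AT1-like cells were also higher in KI, and several were lower. Endothelial markers were 505 CPM in WT and 1437 in KI (8 of 8 genes with UMIs), fibroblast markers 202 and 1050 (9 of 9), and mural markers 57.7 and 303 (11 of 12, with Cnn1 at 0 in WT and Kcnj8 in KI). AT2 markers were 1176 and 5478 CPM (8 of 8), and airway epithelial markers 280 and 1154. Mesothelial (1444 and 1007 CPM), macrophage or monocyte (216 and 160) and red cell or platelet markers (1790 and 152) were lower in KI. On low sums, neutrophil and T or natural killer cell markers were also lower, and B cell and neural markers higher. In the 232 WT and 113 KI AT1-like cells with no endothelial marker UMI, S1pr1 was 16.8 and 14.96 CPM (−0.17, −1.99 to 1.39, from 14 and 5 UMIs). Plpp1 there was 47.9 and 41.9 (−0.20, −1.19 to 0.71), and Plpp3 was −0.49 (−3.79 to 1.90), from 7 and 2 UMIs. Each of these intervals spans 0. S1pr2 there was 47.9 and 29.9 CPM (−0.68, −1.85 to 0.34, from 40 and 10 UMIs) and Sphk1 580 and 491 (−0.24, −0.51 to 0.02), and both intervals span 0. With doublets kept the ratios were within 0.5 for S1pr1 (0.25), Plpp1 (0.27) and Plpp3 (0.32). With at least 500 genes and at most 5% mitochondrial UMIs, they were −0.28 for S1pr3, −0.07 for Plpp3 and 0.32 for Plpp1.

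In AT2-like cells, which make surfactant, no member led. The 1 gene past 0.5 was S1pr1, 31.1 CPM in WT and 20.1 in KI (−0.63, −0.95 to −0.30), beside 14.3% of 9817 genes in either direction, 3.21% lower and 11.1% higher. The class joined unlike clusters. In cluster 5, with 450 WT and 474 KI cells, S1pr1 was 31.1 and 9.7 CPM (−1.69). Cluster 21, with 5 WT and 95 KI cells, held 603 CPM of S1pr1 and 5350 CPM of endothelial markers in KI, at a median of 1342 UMIs per cell, and moved the class value toward 0. Endothelial markers summed to 285 CPM in WT and 204 in KI over the class, and in the 152 WT and 190 KI cells with none of them S1pr1 was 6.18 and 5.40 CPM (−0.19, −1.47 to 1.11). The ratio was 0.32 with doublets kept and 1.92 when per-cell CPM values were averaged, both on the other side of 0. S1pr2 was 20.2 and 28.0 CPM (0.48). The members' median was 0.06 over 7 genes, against 0.07 for all genes.

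Other genes of the pathway were read from lists, counting those with at least 50 UMIs past 0.5. Each list count is to be read against the share of all genes past 0.5. That share was 15.4% in endothelial-like, 21.3% in fibroblast-like, 16.8% in mural-like, 14.3% in AT2-like and 26.2% in AT1-like cells. No list count was tested against it. The enzymes that supply ceramide and sphingosine are to be read against the shares of all genes given above: 2 of 24 measured genes were higher and none lower in endothelial-like cells, 4 and 1 of 24 in fibroblast-like, 3 and 1 of 20 in mural-like, 1 and 1 of 24 in AT2-like and 2 and 2 of 19 in AT1-like cells. In either direction that was 4 of 20 mural-like and 4 of 19 AT1-like genes, where 16.8% and 26.2% of all genes were past 0.5. Their medians were −0.05, 0.15, 0.15, 0.04 and −0.05 in that order. Smpd4, a neutral sphingomyelinase, was lower in KI mural-like cells, 12.1 against 24.6 CPM (−1.02, from 35 and 22 UMIs). Genes that couple the receptors to G proteins, junctions and transcription had 2 higher and 1 lower of 22 in endothelial-like, 3 and 1 of 21 in fibroblast-like, 0 and 2 of 21 in mural-like, 1 and 0 of 20 in AT2-like and 4 and 1 of 19 in AT1-like cells, with medians of −0.03, 0.01, −0.08, 0.02 and 0.23. Klf2, the flow-responsive factor that acts upstream of S1pr1, was higher in KI in endothelial-like cells (858 and 1149 CPM, 0.42). By subset Klf2 was 0.73 in artery-like, 0.51 in aerocyte-like, 0.40 in vein-like and 0.23 in general capillary-like cells. A relation of these values to S1pr1 was not tested. Outside the endothelium Klf2 was 0.95 in fibroblast-like, 0.63 in AT2-like and 0.12 in mural-like cells. In AT1-like cells it was 1.06, and Cdh5, the endothelial junction cadherin, 1.40, at 97.1 and 257 CPM, beside the endothelial markers given above.

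The same shares stand beside the next counts: 15.4% of all genes in endothelial-like, 21.3% in fibroblast-like and 26.2% in AT1-like cells. Among exporters and plasma carriers, 0 of 4 measured genes were past 0.5 in endothelial-like cells (median −0.05). In fibroblast-like cells Spns2 was the 1 of 3 that was, at 9.33 and 3.67 CPM (−1.35, from 38 and 15 UMIs). The other enzymes that break down S1P had 1 higher of 6 in both endothelial-like and fibroblast-like cells (medians −0.05 and 0.04) and 1 of 5 in AT1-like cells. Genes of the related lipid lysophosphatidic acid had 1 higher of 6 in endothelial-like and 2 of 6 in fibroblast-like cells, with none lower (medians 0.07 and 0.31). Red cell and platelet genes, listed because those cells supply plasma S1P, stood on both sides by summed UMIs. The haemoglobin genes Hba-a1, Hba-a2, Hbb-bs and Hbb-bt had ratios of 1.86 to 3.34 in endothelial-like cells and 8.04 to 9.33 in fibroblast-like cells. In mural-like cells Hba-a1 and Hba-a2 had 6.00 and 5.89, and Hbb-bs had 0 WT and 883 KI UMIs. In AT2-like cells Hbb-bs had 4.88. In AT1-like cells the same 4 genes were lower in KI, from −4.20 to −2.31. There a red cell or platelet marker UMI was present in 2.77% of WT but 18.75% of KI cells. Few WT cells therefore carried the higher WT sum.

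Across 19 class profiles (10 classes in both libraries, without the KI neutrophil-like cells), the genes most alike to each member by Pearson r of log2(CPM + 10) were picked from 7733 genes as a description, since the profiles share libraries and depth. S1pr1 was closest to Cldn5, Pecam1 and Icam2 (0.95, 0.94 and 0.94), all junction or adhesion genes of endothelium. S1pr3 was closest to Arhgap42, Adcy2 and Dennd2a (each 0.98), Plpp1 to Nsg1, Acvrl1 and Piezo2 (0.97, 0.96 and 0.95), and Plpp3 to Ltbp4, Eln and Selenom (0.96, 0.96 and 0.94). Sphk1 was closest to Igfbp6 (0.94), Limch1 (0.90) and Ablim3 (0.89), Sgpl1 to Rab20 (0.86), Aph1c (0.86) and Fth1 (0.84), and S1pr2 to Kank2 (0.84), Mpp7 (0.82) and Parp3 (0.82). Sphk2, the evenly spread kinase, had the weakest match, Adipor1 at 0.78, then Atp6v0a1 and Atp6v1a.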

How the data were processed

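Per the labels' protocols, cells were captured with the 10x Chromium V3 kit, which tags the 3′ end of transcripts. The authors deposited raw UMI counts, as 1 matrix for each library. Cell Ranger 2.0 and Seurat 2.3.4, run in R 3.5.3, and the mm10 genome are listed in the submitters' processing notes. The matrix software is given as version 3.0.2, per the file headers. The lowest barcode total was 500 UMIs. Barcodes with fewer than 200 genes (92 WT, 142 KI) or over 10% mitochondrial UMIs (2055 and 1921) were left out. Scrublet's automatic threshold marked 0 doublets, so the highest-scored barcodes were removed at an expected 0.8% per 1000 barcodes (877 and 665). Both libraries were clustered together in scanpy 1.11.5 (2000 variable genes per library, 30 components, 15 neighbours, Leiden resolution 1). Clusters took the marker list with the highest score and stayed unnamed below 0.5 or with fewer than 3 markers. UMIs were summed per library and class. Ratios carry exact conditional binomial intervals, levels exact Poisson intervals and shares exact Clopper-Pearson intervals (scipy 1.17.1), all at 95% and for counting error only, and the ratio interval was tested on simulated data. PCR copies are collapsed by UMI. Gene positions are those of GENCODE M21 (GRCm38).

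The members and gene lists were chosen with earlier results of these data known. List genes were named where a class had at least 50 UMIs and a log2 ratio past 1, at most the 6 furthest per class, with S1pr4, S1pr5, Spns2 and Mfsd2b always named. The 3 genes most alike to each member were named from genes with at least 50 CPM in 1 class. Individual genes outside these rules were named after their values were seen. These were Klf2 in endothelial-like cells and their subsets and in fibroblast-like, AT2-like and mural-like cells. Alternatives covered doublets, filters, resolution, separate clustering, cluster weights, per-cell means, scaling by the median ratio over genes, and a 200-UMI floor. Leaving out clusters 17, 21, 25 and 26, keeping only cells with no endothelial marker UMI, and dividing cluster 4 by the stricter filter's clusters were added after the data were seen.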

Additional observations from a re-analysis of the deposited data

Results flagged for a closer look

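The receptors stood on opposite sides of 0 in different classes, with 95% counting intervals clear of 0 on both sides. This difference between classes was not tested, since each genotype has 1 library. S1pr1 had a log2 ratio of KI over WT of 1.09 in AT1-like cells, against −0.55 in fibroblast-like and −0.63 in AT2-like cells. S1pr2 was at 0.80 in fibroblast-like and −0.85 in AT1-like cells. S1pr3 was at 2.32 in AT1-like and −0.59 in fibroblast-like cells. Several of these values moved under alternatives. S1pr1 in AT2-like cells was at 0.32 with doublets kept and at 1.92 with per-cell CPM averaged, and S1pr1 in fibroblast-like cells with no endothelial marker UMI was at −0.23. S1pr3 was at −0.17 in fibroblast-like cells with the same cluster weights and at −0.28 in AT1-like cells with at least 500 genes and at most 5% mitochondrial UMIs. In the AT1-like cells with no endothelial marker UMI, S1pr1 was at −0.17 (−1.99 to 1.39), and S1pr3 there had 1 WT and 2 KI UMIs.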

How the results depend on the processing

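Across members, classes and alternatives, 281 ratios stayed inside the counting interval of the reported one, 64 lay outside it, and in 7 a ratio reported past 0.5 changed sign. The reversals were S1pr1 in AT2-like cells with doublets kept (0.32) and with per-cell CPM averaged (1.92), S1pr3 and Plpp3 in AT1-like cells with at least 500 genes and at most 5% mitochondrial UMIs (−0.28 and −0.073), and S1pr1, Plpp1 and Plpp3 in AT1-like cells with no endothelial marker UMI (−0.17, −0.20 and −0.49). The last 3 values have counting intervals that span 0, with 7 WT and 2 KI UMIs for Plpp3. The count of members past 0.5 was 0 in endothelial-like, 5 in fibroblast-like, 2 in mural-like, 1 in AT2-like and 5 in AT1-like cells. It became 1, 4, 3 and 3 in endothelial-like, fibroblast-like, AT2-like and AT1-like cells with doublets kept (fibroblast S1pr1 and S1pr3 dropped out and Plpp1 came in), and 4, 4 and 2 in mural-like, AT2-like and AT1-like cells under the stricter filter. It was 1 endothelial and 3 AT2 at resolution 0.5 or without clusters 17, 21, 25 and 26, and 2 and 2 with each library clustered alone. With the same cluster weights it was 1 endothelial, 3 fibroblast, 3 mural, 3 AT2 and 6 AT1, and 1 endothelial, 2 fibroblast and 4 AT2 with per-cell CPM averaged. With no endothelial marker UMI it was 4 fibroblast (without S1pr1), 4 mural, 4 AT2 and 3 AT1. The cause of these shifts was not tested. In the main setting, the shares of all genes past 0.5 were 15.4%, 21.3%, 16.8%, 14.3% and 26.2% in the order first named. No such share is given for the alternatives above, so their counts cannot be read against a background. Raising the floor from 50 to 200 UMIs lowered the share of all genes past 0.5 to 10.4% in endothelial-like, 14.0% in fibroblast-like, 7.26% in mural-like, 6.49% in AT2-like and 19.7% in AT1-like cells. Among the 5 compared classes, the leading class was the same with per-cell CPM averaged for 16 of 16 pairs of gene and library. The share of cells with a UMI was higher in KI for 23 pairs of gene and class, or 21 with thinned cells. KI cells were deeper, at a median of 3774.5 UMIs against 3307 in WT. No share over all genes is given here either, so these counts cannot be read against a background. No paired analysis was possible because each group holds 1 library, and for the same reason none could be left out.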
